A study of Homo sapiens with 32 samples.

Results

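The proteasome subunit promoters are 89 of the 212358 windows of 401 bp in the deposited ATAC-seq count table. A window was taken when a protein-coding gene (GENCODE release 44, hg38) had a transcript start no more than 500 bp from its centre and the gene's symbol is PSMA, PSMB, PSMC, PSMD, PSME, PSMF or PSMG followed by digits only. This rule uses gene names and positions and no measured value. It covers 48 genes, of which 44 had at least 1 window: 18 had a single window and PSMG2 had 7, the most of any. Several windows of a gene are not independent measurements, because 36 of the 89 overlap another of the set and so share counts. In 40 of them the start of another gene also lies within 500 bp.

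ATAC-seq measures how open DNA is by how often the transposase Tn5 cuts it. The libraries came from HEK_CloneZD29, a single clone of HEK293T, a transformed human embryonic kidney cell line. Its ZNF143, a transcription factor, is tagged with a degron, in treated and control cells alike, so that the degrader can act on it. The comparison set 8 libraries taken after 30 min with 50 nM dTAGV-1, a degrader molecule, against 8 DMSO control libraries, replicates 9 to 16 of each. Another 16 libraries, replicates 1 to 8, entered only through a deposited list of summit positions and scores. The comparison asks where accessibility changed shortly after ZNF143 was targeted. The amount of ZNF143 protein was not analysed here, and nothing in the labels says that replicates came from separate cultures, so p-values measure the spread between these libraries, which may be technical.

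The proteasome degrades proteins marked with ubiquitin. Its core particle is a barrel of alpha rings, which gate the entrance, around beta rings, which hold the proteolytic sites. The regulatory particle caps the barrel, where ATPases unfold the substrate and non-ATPase subunits bind and remove ubiquitin. Dedicated chaperones assemble each particle, and other caps can replace the regulatory particle. Proteasome genes are expressed in nearly all cells, and the transcription factor NFE2L1 raises them together when the proteasome is impaired. ZNF143 binds an extended DNA site, common in promoters, whose first part reads ACTACANNTCCC, where N is any base.

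Sequences of hg38 are shown for the strongest window of PSMC3, the gene with the window that passed the test, for the windows with the next smallest p-values and for the most accessible window. All are printed 5′ to 3′ on the strand of the gene. Each is the middle of its window, ends no further than the transcript start, and is 264, 300 and 239 bases long for PSMC3, PSMD2 and PSMA5. For PSMD10, where ATG4A starts on the other strand inside the window, only the 30 bases around its ACTACANNTCCC are shown. The positions are chr11:47426474-47426737 (minus strand) for PSMC3, chr3:184298866-184299165 (plus strand) for PSMD2, chrX:108091737-108091766 (minus strand) for PSMD10 and chr1:109426449-109426687 (minus strand) for PSMA5. Capitals mark CCAAT (bound by NFY), GGGCGG (SP and KLF factors), TGACNNNGC (the antioxidant response element) and ACTACANNTCCC, each on either strand.
PSMC3 at -115 bp: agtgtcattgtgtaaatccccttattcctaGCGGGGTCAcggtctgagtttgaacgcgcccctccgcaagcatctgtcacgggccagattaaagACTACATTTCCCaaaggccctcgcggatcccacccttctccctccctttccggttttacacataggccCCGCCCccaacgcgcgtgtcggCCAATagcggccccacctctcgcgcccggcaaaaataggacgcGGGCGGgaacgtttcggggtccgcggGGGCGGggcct
PSMD2 at -182 bp: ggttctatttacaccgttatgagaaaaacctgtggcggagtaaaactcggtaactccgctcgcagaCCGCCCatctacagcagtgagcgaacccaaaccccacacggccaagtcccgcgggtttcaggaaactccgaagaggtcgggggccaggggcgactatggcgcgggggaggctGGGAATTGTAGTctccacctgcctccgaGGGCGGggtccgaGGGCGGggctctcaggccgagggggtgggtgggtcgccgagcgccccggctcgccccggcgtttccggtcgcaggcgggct
PSMD10 at -124 bp: aggatccctGGGACTTGTAGTtctgcactg
PSMA5 at -90 bp: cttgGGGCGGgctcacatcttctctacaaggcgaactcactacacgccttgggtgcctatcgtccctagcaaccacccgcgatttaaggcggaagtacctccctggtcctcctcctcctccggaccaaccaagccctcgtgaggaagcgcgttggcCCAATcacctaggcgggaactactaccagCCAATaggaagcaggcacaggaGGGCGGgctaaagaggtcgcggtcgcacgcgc

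The windows of PSMC3 at -115 bp, PSMD2 and PSMD10 each hold 1 ACTACANNTCCC. That motif was added after the sequences of these windows had been seen. The PSMD10 stretch was then cut around its match, so that it holds the letters by choice, and a match describes letters, not binding.

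Library totals ran from 2275856 to 13671039 counts, and the proteasome windows took 0.119% to 0.160% of them. Control replicate 12, the library with the fewest counts, stood apart: the top 10% of windows by accessibility held 30.9% of its counts, against 44% to 47.3% in the other controls. It was the lowest of the 8 controls in 65 of 85 tested proteasome windows, with a median deviation of -0.56 from the mean of the 16 libraries on the log2 CPM scale (counts scaled to the library size). The dTAGV-1 library of replicate 12 was the lowest of its group in 38 of the 85, with a median deviation of -0.25. Of the kidney lineage factors expected in HEK293T, the promoters of PAX2 and EYA1 were accessible, at 3.48 and 4.16 log2 CPM, while the only window of LHX1 was not tested. PTPRC and CD3E (blood cells) and ALB (hepatocytes) had no promoter window. SFTPC (lung epithelium) had 1, at 2.20 log2 CPM, which it shares with the start of LGI3.

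**Figure D1:**
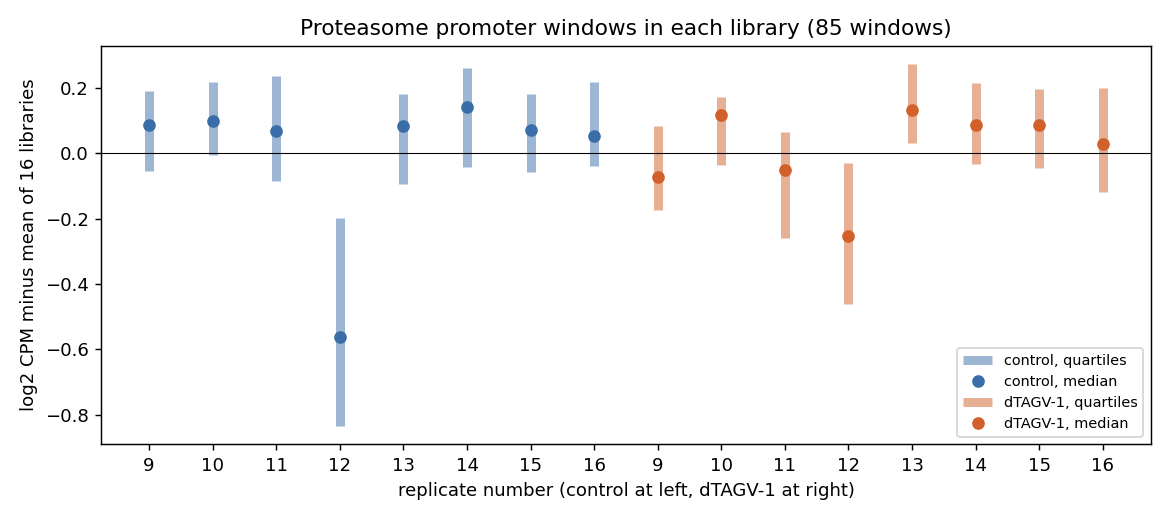
Deviation of the 85 tested proteasome windows in each library, as log2 CPM minus the mean of the 16 libraries; points are medians over windows and bars run between the quartiles. Control replicate 12 has a median of -0.56 and dTAGV-1 replicate 12 one of -0.25, below the other 14 libraries.

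After 30 min of dTAGV-1, accessibility at 83 of 85 tested proteasome windows could not be told from the controls, the 95% interval of the fold change including 0. A single window, upstream of the ATPase gene PSMC3, was called lower, at 53.1% of its control level. The proteasome windows as a set were split evenly, with 44 of 85 below 0 and 41 above, and their median log2 fold change was -0.01. Counts were compared with edgeR's quasi-likelihood test over all 185040 windows with enough counts, and a window was called when its Benjamini-Hochberg adjusted p was under 0.05. Of the 85 tested proteasome windows, 1 was called lower and 0 higher. Over all tested windows 0.213% were called lower and 0.00108% higher, and over the 31702 tested windows at protein-coding starts 0.628% and 0.00631%. At an unadjusted edgeR p under 0.05 there were 2 proteasome windows lower and 0 higher, against 1.55% and 1.3% of all tested windows. Of the 31702 tested windows at protein-coding starts, 711 were lower and 266 higher at that threshold. DESeq2 also called 1 lower and 0 higher. These counts come from a fit without a replicate block; with the replicate number as a block 2 were called lower, PSMC3 and PSMD2.

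The median of -0.01 stood beside 0.01 over all tested windows and 0.01 over those at protein-coding starts. Of the 85 proteasome windows, 76 (89.4%) had a log2 fold change within 0.2 of 0, as did 85.3% of the windows at protein-coding starts. Standard errors ran from 0.13 to 0.27. A missed threshold does not show that a promoter stayed the same. The intervals give the bound: for the most accessible window of each gene, 40 of 42 lay wholly within 0.5 log2 units of 0, the exceptions being PSMD2 and PSMD10.

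**Figure D2:**
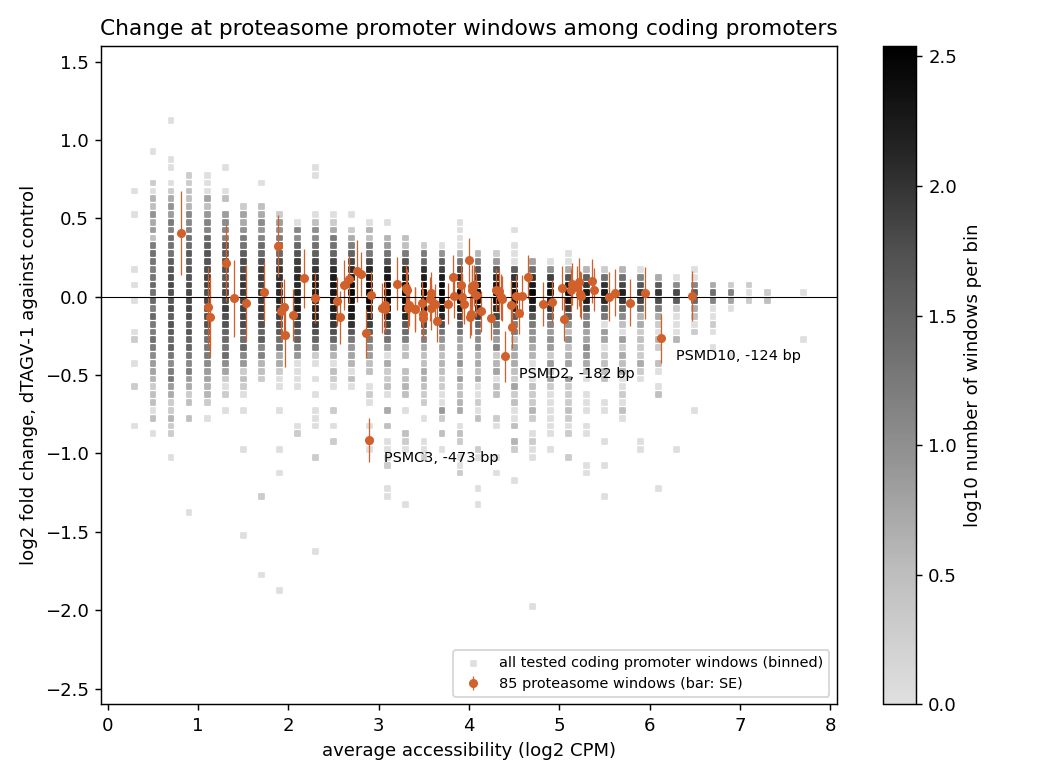
Log2 fold change (dTAGV-1 against control) against average accessibility (log2 CPM) for the 85 tested proteasome windows (orange, bars are 1 SE), over all 31702 tested windows at protein-coding starts (grey squares, darker for more windows per bin, log10 scale). The PSMC3 window at -473 bp lies at -0.91, apart from the other proteasome windows, which lie between -0.38 and 0.41.

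PSMC3 encodes an ATPase of the regulatory particle, and it had 3 windows by the rule, with 1 more just outside it. The called window was centred at -473 bp from a transcript start, in no other gene's promoter. From the canonical PSMC3 start it lay at -507 bp, so it entered the set through another start of the gene. Its 8 control libraries ran from 2.95 through a median of 3.28 to 3.51 log2 CPM, with 3.24 ± 0.20 (SD, n = 8). The 8 dTAGV-1 libraries ran from 2.16 through a median of 2.31 to 2.82, with 2.38 ± 0.22 (SD, n = 8). All 8 treated libraries lay below the lowest control, so the groups did not overlap. The log2 fold change was -0.91 ± 0.14 (SE), with an adjusted p of 6.94e-05 from edgeR's quasi-likelihood test. No other proteasome window had non-overlapping groups in this direction, which 0.0713% of all tested windows and 0.167% of those at protein-coding starts had. The reads behind these values were few, from 20 to 116 counts per control library and 16 to 75 per treated library. The letters ACTACANNTCCC are not in this window, and 137 of its 371 runs of 31 bases also occur elsewhere in hg38, as do 223 of 371 in the window at -703 bp and 0 in those at -115 and -1 bp. Whether reads that fit several places were kept is not given in the sources used here.

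The other PSMC3 windows, nearer to the start, showed smaller differences. The strongest, at -115 bp, had 4.55 ± 0.16 log2 CPM in control and 4.36 ± 0.22 in treated libraries (SD, n = 8 each). The groups overlapped, and the log2 fold change was -0.19 ± 0.13 (SE). The window at -115 bp overlaps the called one at its edge, so the values of these windows are not independent. The window at -1 bp had a log2 fold change of -0.05 ± 0.13 (SE). Further upstream, at -703 bp and outside the rule, the control libraries ran from 1.52 through 2.82 to 3.27 log2 CPM and the treated ones from 0.92 through 2.37 to 2.74. That window overlaps the called one and shares counts with it; its log2 fold change was -0.48 ± 0.17 (SE), with an adjusted p of 1 in edgeR. Replicate 12 was the lowest of its group there in control and treated libraries alike. At -473 bp the called window was 40.8% of the way up the ranking of accessibility among windows at protein-coding starts, and the window at -115 bp 81.3% of the way. In the summit list from replicates 1 to 8, a summit lay exactly at the centre of the called window, with the authors' score of 138 on a -log10 scale. Whether the fold change at -473 bp differs from those beside it was not tested.

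**Figure D3:**
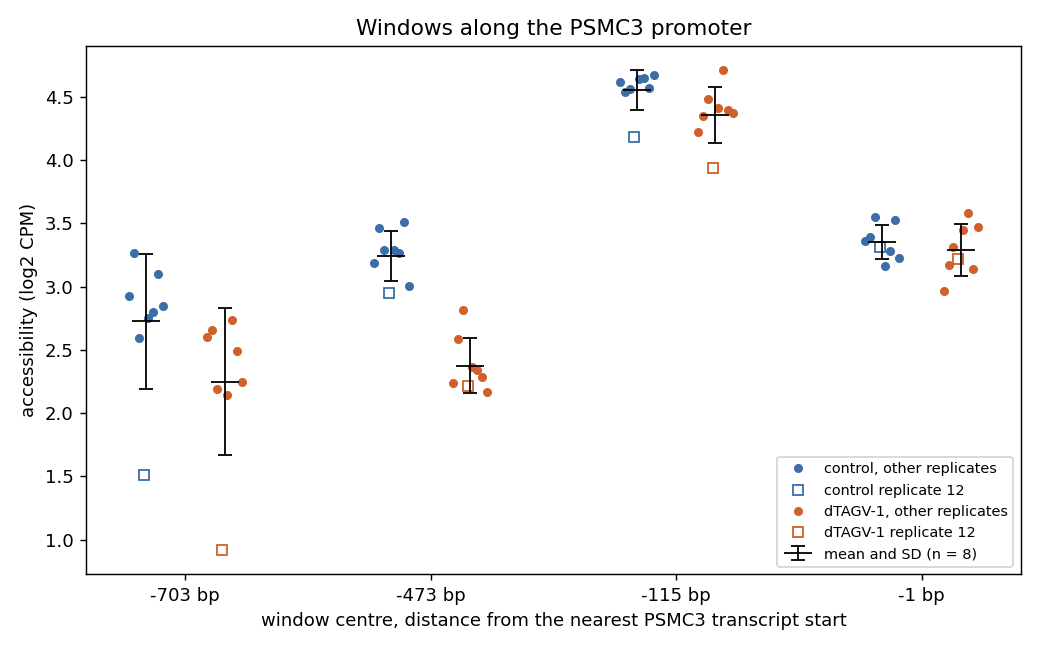
Accessibility (log2 CPM) of the 4 windows along the PSMC3 promoter in each library, by distance of the window centre from the nearest transcript start; bars are the mean and SD of 8 libraries, and open squares are replicate 12. The groups separate at -473 bp and overlap at -703, -115 and -1 bp.

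The regulatory particle ATPases form a ring of 6 subunits, PSMC1 to PSMC6. All 6 genes had a tested window, 12 in all, and 1 was called. Their median log2 fold change was -0.04. The most accessible windows of PSMC4, PSMC5 and PSMC6 had log2 fold changes of -0.04 ± 0.15, -0.10 ± 0.13 and 0.06 ± 0.14 (SE). For PSMC2 the most accessible window lies at an upstream start shared with DNAJC2, with 0.08 ± 0.14 (SE). The PSMC2 window 14 bp upstream of a start near the gene's canonical one had -0.16 ± 0.13 (SE).

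The non-ATPase subunits of the regulatory particle form its base scaffold and its lid. All 11 had a tested window, none of the 18 windows was called, and their median log2 fold change was -0.01. PSMD2, a scaffold subunit to which ubiquitin-carrying shuttle proteins bind, had the second smallest p of the set. Its window at -182 bp (chr3:184298816-184299216) ran from 2.88 through 4.71 to 4.84 log2 CPM in control and from 3.59 through 4.19 to 4.55 in treated libraries. The groups overlapped: control replicate 12, at 2.88, lay below every treated library, and the other controls lay between 4.46 and 4.84. The log2 fold change was -0.38 ± 0.16 (SE), with an unadjusted p of 0.0232 and an adjusted p of 1 in edgeR. Without control replicate 12 it was -0.48 with an adjusted p of 0.0463, and with the replicate number as a block -0.39 with an adjusted p of 0.0184.

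PSMD13, a lid subunit, had the 2 next smallest p-values after PSMD10, both toward higher accessibility. Its window at -439 bp (chr11:236327-236727), shared with the start of SIRT3, ran from 2.88 through 3.88 to 4.20 log2 CPM in control and from 3.72 through 4.11 to 4.39 in treated libraries. Its log2 fold change was 0.23 ± 0.14 (SE), and control replicate 12 was again the lowest value. The window at 139 bp (chr11:250723-251123), at a start far inside the gene, ran from 1.03 through 1.73 to 2.36 in control and from 1.27 through 2.06 to 2.43 in treated libraries, with 0.32 ± 0.20 (SE). Both overlapped between groups, and neither was called. PSMD14, the deubiquitinase that removes ubiquitin chains, had a log2 fold change of -0.0001 ± 0.15 (SE) at its most accessible window, and PSMD4, a ubiquitin receptor, -0.14 ± 0.14 (SE). PSMD1, the other large scaffold subunit, had -0.08 ± 0.14 (SE).

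The regulatory particle assembly chaperones, PSMD5, PSMD9 and PSMD10, had 5 tested windows, none called, with a median of -0.11. PSMD10, also known as gankyrin, had the third smallest p. Its window at -124 bp (chrX:108091473-108091873), shared with ATG4A, ran from 5.23 through 6.35 to 6.54 log2 CPM in control and from 5.55 through 6.0 to 6.19 in treated libraries. The groups overlapped, with control replicate 12 the lowest of all 16. The log2 fold change was -0.26 ± 0.16 (SE) and the unadjusted p 0.0978. It was called in 1 alternative, without replicates 11 and 12 of both groups, at -0.33 with an adjusted p of 0.000245 in edgeR. PSMD5 had the least accessible of the 42 strongest windows, at -51 bp, with 3.06 ± 0.26 log2 CPM in control and 2.98 ± 0.45 in treated libraries (SD, n = 8 each). Its control libraries ran from 2.45 through 3.13 to 3.28 and its treated libraries from 2.03 through 3.06 to 3.57, so the groups overlapped, and the log2 fold change was -0.06 ± 0.15 (SE).

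**Figure D4:**
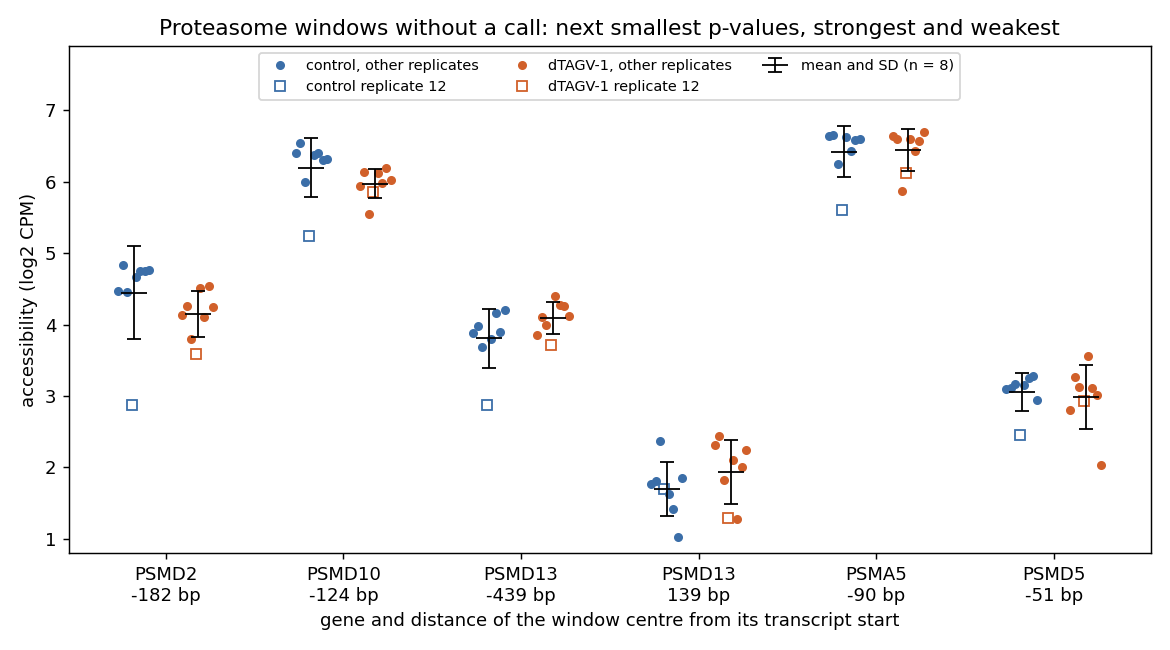
Accessibility (log2 CPM) in each library for the 4 proteasome windows with the smallest p-values after the called one (PSMD2, PSMD10 and both PSMD13 windows), for the most accessible window (PSMA5) and for the least accessible of the strongest windows (PSMD5). Bars are the mean and SD of 8 libraries and open squares are replicate 12; the control square lies below the other controls in 5 of the 6 windows.

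In the core particle no window was called. The alpha ring, PSMA1 to PSMA7, had 17 tested windows with a median log2 fold change of 0.005 and a range from -0.11 to 0.16. PSMA5 had the most accessible window of all, at -90 bp (chr1:109426338-109426738), above 99.6% of the tested windows at protein-coding starts. It ran from 5.60 through 6.59 to 6.65 log2 CPM in control and from 5.87 through 6.58 to 6.70 in treated libraries. The groups overlapped almost wholly, and the log2 fold change was 0.005 ± 0.16 (SE), with a 95% interval from -0.31 to 0.32. PSMA2 followed in this ring, with 5.5 ± 0.40 log2 CPM in control (SD, n = 8), at a promoter shared with MRPL32. PSMA7 had the least accessible strongest window of the ring, with 3.20 ± 0.38 (SD, n = 8), at a promoter shared with SS18L1; the levels of PSMA1, PSMA3 and PSMA6 lay between and within their SDs of each other.

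The beta ring, PSMB1 to PSMB7, had 7 tested windows with a median log2 fold change of -0.02 and a range from -0.24 to 0.08. PSMB6 and PSMB7, which carry the caspase-like and trypsin-like sites, had 0.08 ± 0.17 and -0.02 ± 0.14 (SE). PSMB5, which carries the chymotrypsin-like site, had no window by the rule; the nearest centre was 9418 bp away. Summits of replicates 1 to 8 did lie within 500 bp of its start, 2 in number, the higher with the authors' score of 841. PSMB3 had 2 windows, neither tested, because the table lists 0 counts in all 16 libraries. The authors' -log10 q for the window at -82 bp was 791, and a summit of replicates 1 to 8 near this start had a score of 787. The same held for the 2 windows of PSMB9, with authors' -log10 q of 92.1 and 23.1. In all, 2816 windows of the table (1.33%) are listed at 0 in every library, with a median -log10 q of 36.3, above the 23.4 of all windows, so these zeros were not read as closed DNA.

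Of the inducible or tissue-restricted beta subunits, PSMB10 had the only tested window, with 5.33 ± 0.28 log2 CPM in control and 5.40 ± 0.11 in treated libraries (SD, n = 8 each) and a log2 fold change of 0.05 ± 0.14 (SE). PSMB10, PSMB8 and PSMB9 replace the standard catalytic subunits in the immunoproteasome, and PSMB11 does so in the thymus. PSMB8 and PSMB11 had no window by the rule, with the nearest centres 5099 and 16903 bp away, and no summit of replicates 1 to 8 within 500 bp of a start. PSMA8, an alpha subunit of the testis, likewise had neither, with the nearest centre at 1855 bp.

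The alternative caps and the inhibitor, PSME1 to PSME4 and PSMF1, had 9 tested windows and none called, with a median log2 fold change of 0.0009. PSME1 and PSME2, which together form an interferon-induced cap, had 0.12 ± 0.14 and 0.02 ± 0.17 (SE) at their most accessible windows, the latter shared with RNF31. PSME3, the nuclear relative, had -0.09 ± 0.13 at an upstream start shared with BECN1 and -0.05 ± 0.13 at its canonical start (SE). PSMF1, a proteasome inhibitor, had -0.01 ± 0.14 (SE).

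The core particle assembly chaperones, PSMG1 to PSMG4, had 16 tested windows and none called, with a median of -0.01. Their range, from -0.23 to 0.41, held the highest fold change of the set, at a PSMG2 window at -376 bp with few counts. That window had 0.60 ± 0.28 log2 CPM in control and 0.93 ± 0.30 in treated libraries (SD, n = 8 each), and its log2 fold change was 0.41 ± 0.27 (SE). The most accessible PSMG2 window lies at a distant start shared with SPIRE1, with -0.07 ± 0.14, and the window at its canonical start, shared with CEP76, had 0.08 ± 0.16 (SE).

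The 85 tested proteasome windows had a median level of 3.82 log2 CPM. The median of the tested windows at protein-coding starts was 3.20, and 58 of the 85 stood above it. The strongest window of each of the 42 genes ran from 3.07 to 6.46, with a median of 4.44. Taken the same way, the strongest windows of all 14689 protein-coding genes with a tested window had a median of 4.20, and 26 of the 42 proteasome genes stood above it. By role the median level of the strongest windows was 5.14 in the alpha ring, 4.07 in the beta ring, 4.52 for the ATPases, 4.35 for the non-ATPase subunits, 5.24 for the chaperones of the regulatory particle, 4.37 for the caps and inhibitor and 4.17 for the chaperones of the core. The ranges of these roles overlapped, since the alpha ring alone ran from 3.30 to 6.46. Windows have one fixed width, so these levels are per length, and taking the strongest of several windows favours genes with more of them.

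**Figure D5:**
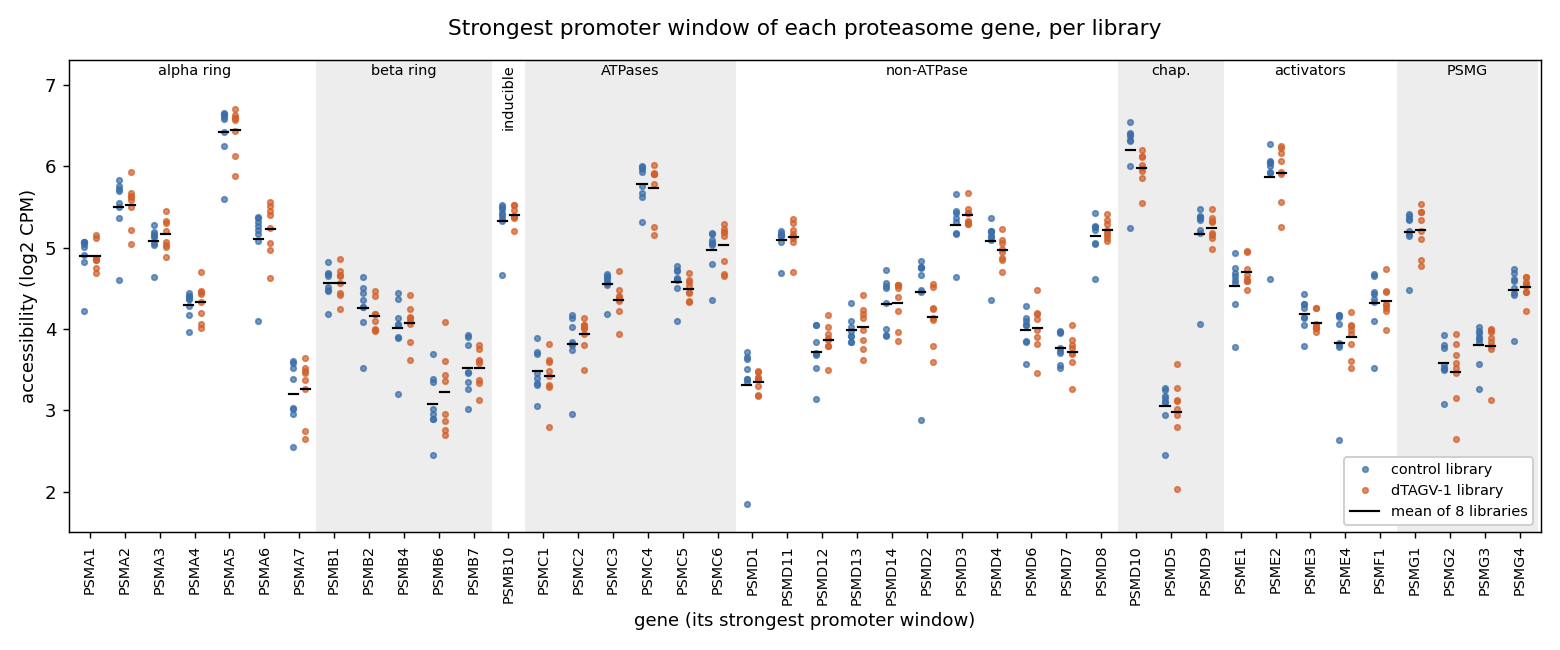
Accessibility (log2 CPM) of the strongest promoter window of each of the 42 tested proteasome genes in every library, ordered by role; points are libraries and black lines the means of 8. Control and dTAGV-1 libraries overlap in all 42 genes, and control replicate 12 is often the low blue point.

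The strongest window lay close to a start, at a median distance of 41.5 bp, and in 37 of 42 genes within 500 bp of the canonical start. The exceptions were PSMB10, PSMC2, PSME2, PSME3 and PSMG2. Of all 89 windows, 63 lay within 500 bp of a canonical start and 72 held a summit from replicates 1 to 8. At the edge of the rule, the furthest windows inside were PSMD7 at 490 bp, PSMC3 at -473 bp and PSMA1 at -471 bp, with log2 fold changes of -0.13, -0.91 and -0.11. The nearest outside were PSMB6 at 560 bp, PSMB2 at -565 bp, PSMG4 at 569 bp and PSMD12 at 596 bp, with -0.11, 0.03, 0.07 and -0.49. Within 250 bp the rule would take 66 windows with 0 called, and within 1000 bp 109 windows with 1 called.

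The letters that the windows share were counted over all 89, beside the 32936 windows at protein-coding starts, on both strands and over the whole window. CCGGAAG, an ETS site, was in 20 windows (22.5%) against 11.8%. It was in 19 of the 42 strongest windows, but the strongest windows of other genes were not counted for it. TGACNNNGC, the antioxidant response element through which NFE2L1 acts on proteasome genes, was in 25 (28.1%) against 16.6%. AAGATGGCG, a YY1 site, was in 7 (7.87%) against 2.09%. CCAAT was in 31 (34.8%) against 32.4%, GGGCGG in 59 (66.3%) against 65.2%, GCGCANGCG (NRF1) in 6 (6.74%) against 8.70%, TGACGTCA (the cyclic AMP response element) in 1 (1.12%) against 1.81% and CACGTG (the E-box) in 7 (7.87%) against 9.01%. The median GC content was 61.6%, against 64.3% at protein-coding starts and 48.1% over all windows.

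The inner part and the first part of the ZNF143 site were counted separately. The ZNF143 core, the inner part of the site, was in 0 of the 89 windows, against 1.41% of windows at protein-coding starts. With a share that low, 0 of 89 is near it and shows no difference. ACTACANNTCCC was in 5 (5.62%) against 2.01%. This motif was added after the printed sequences had been seen, and the windows of PSMC3, PSMD2 and PSMD10 are among the 5. The share of 5.62% thus includes windows seen before the choice, and it is not evidence that the motif is more frequent here. The 5 windows with the letters were the strongest windows of PSMC3, PSMC4, PSMD2, PSMD10 and PSMD11. Their log2 fold changes were -0.19 for PSMC3, -0.04 for PSMC4, -0.38 for PSMD2, -0.26 for PSMD10 and 0.04 for PSMD11, and none was called. Their median was -0.19, against 0.0002 over the 80 tested proteasome windows without the letters. Among tested windows at protein-coding starts, 122 of 642 with ACTACANNTCCC were called lower (19.0%) and 77 of 31060 without it (0.248%), with medians of -0.28 and 0.01. The 5 windows are few, their letters were looked for after their fold changes were known, and the difference was not tested.

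Other genes of the ubiquitin and proteasome pathway, 30 in number, gave 77 tested windows in 29 genes. Of these windows 1 was called lower and 0 higher, against 0.628% and 0.00631% of tested windows at protein-coding starts. Their median log2 fold change was 0.003. The called window was at -136 bp of RPS27A (chr2:55232096-55232496), which encodes ubiquitin fused to a ribosomal protein, and shares its promoter with CLHC1. It had 4.57 ± 0.47 log2 CPM in control and 4.00 ± 0.18 in treated libraries (SD, n = 8 each), a log2 fold change of -0.64 ± 0.15 (SE) and an adjusted p of 0.0276 in edgeR, with 0 of 8 treated libraries below the lowest control. NFE2L1 had 0.04 ± 0.15 at its strongest window, POMP, a chaperone of core particle maturation, 0.004 ± 0.15, and UBA1, the main enzyme that activates ubiquitin, -0.28 ± 0.14 (SE). The last was not called.

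Other constitutive complexes were described in the same fit. Of 142 tested windows of cytosolic ribosomal protein genes 3 were called lower, against 0.628% of tested windows at protein-coding starts. They lay at RPL23A, at RPL36 (shared with HSD11B1L and MICOS13) and at RPS27A. The last is the same window as the one called among the ubiquitin and proteasome pathway genes. The median log2 fold change of the 142 was -0.01. Of the 15 tested windows of the TRiC chaperonin, which folds actin and tubulin, 0 were called, with a median of -0.06. The proteasome set, with 1 of 85 and -0.01, was not tested against either.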

How the data were processed

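ATAC-seq counts of the 16 libraries of replicates 9 to 16 were analysed. Per the labels, libraries were made by Tn5 tagmentation of lysed cells, PCR and bead size selection. The submitters' processing notes name hg38, cutadapt 1.8.1, Bowtie2 2.4.4 and SAMtools 1.9. The peak caller, read filters, Tn5 shift and counting tool are not given in the sources used here. Per the file headers, the authors deposited whole-number counts per window, not normalized, with 1 -log10 q value per window. The authors also deposited a summit list for replicates 1 to 8 with a score on a -log10 scale.

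The test was edgeR's quasi-likelihood test (edgeR 4.0.16 under R 4.3.3) of treatment over all windows kept by filterByExpr, scaled by TMM, with Benjamini-Hochberg adjustment and a threshold of 0.05. Log2 CPM used a prior count of 2. SEs came from the fold change and its F statistic, and intervals are 1.96 SE to either side. They cover the spread of the libraries, while counts carry counting error too. Alternatives were other scalings, no filter, DESeq2 1.42.0, a replicate block, leaving out libraries, other distances and a narrower motif search.

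The members and lists were chosen with earlier results of these data known. Each gene is represented by its tested window of highest average level. Values by library are given for called windows, the 5 windows with the smallest p, and the strongest windows of highest and lowest level; the other PSMC3 windows were added. No 2 libraries of a group agreed within sampling noise (56 pairs, chi-square per degree of freedom 1.64 to 4.88). Some items, among them the sequence of the called PSMC3 window, are not reported here.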

Additional observations from a re-analysis of the deposited data

Results flagged for a closer look

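In groups of 8 libraries, a library was singled out when its gap to the nearest other exceeded Dixon's 95% critical share of the range. This happened in 9 of 24 groups. For a single group chance alone gives about 1 in 20. The 24 groups come from the same 16 libraries and some of their windows overlap, so they are not independent. The count of 9 therefore cannot be set against that rate. In 8 of the 9 the low value was control replicate 12. Its log2 CPM was 2.88 at PSMD2 (-182 bp; other controls 4.46 to 4.84), 5.23 at PSMD10 (-124 bp; 6.0 to 6.54) and 2.88 at PSMD13 (-439 bp; 3.69 to 4.20). It was 5.60 at PSMA5 (-90 bp; 6.24 to 6.65), 2.45 at PSMD5 (-51 bp; 2.94 to 3.28) and 4.19 at PSMC3 (-115 bp; 4.54 to 4.67). At PSMC3 -703 bp it was 1.52, against 2.59 to 3.27. The median over the tested proteasome windows was 3.32 in this library and 3.69 to 3.95 in the other controls. The ninth was dTAGV-1 replicate 12 at PSMC3 -703 bp, with 0.92 against 2.14 to 2.74. The called PSMC3 window at -473 bp had no such library.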

How the results depend on the processing

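The PSMC3 window at -473 bp was called lower in all 24 alternative fits, with log2 fold changes from -0.99 to -0.87 and adjusted p from 6.56e-08 to 0.000584. No proteasome window was called higher in any of them. The number called lower was 2 with the replicate block, 3 without replicates 11 and 12 of both groups, and 1 to 2 with a library left out, the 2 arising without control replicate 12. PSMD2 was the added window each time, with PSMD10 in the second. The cause was not tested. Within 250 bp of a start 0 windows were called, because the PSMC3 window lies further out. Over all windows 397 were called, against 686 with abundance-dependent offsets, 753 with the block, 781 without replicates 11 and 12, and 321 to 632 with a library left out (632 without control replicate 12). At protein-coding starts 199 were called lower, against 152 to 493 over the alternatives and 389 without control replicate 12. The median log2 fold change of the proteasome windows ran from -0.06 to 0.02 and was negative in 17 of 24.

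The main fit did not pair the libraries by replicate number, because the labels do not say that equal numbers belong together. Over the more accessible windows, deviations of same-numbered libraries correlated at 0.109 to 0.315. Medians with other numbers were -0.157 to 0.0742, and each number correlated above its own median. Over all tested windows same-numbered libraries correlated at 0.0276 to 0.336, with 3 of 8 numbers under 0.1. Replicates 11 and 16 did not each match their own number best. With the block, PSMC3 at -473 bp and PSMD2 at -182 bp were called, so the number of calls depends on this choice.

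Windows with few counts are less precise, with SEs reaching 0.27. Control replicate 12, with 2275856 counts, is the lowest control in 65 of 85 tested proteasome windows. These include the most accessible window, at PSMA5, while in the weak PSMD7 window at 490 bp it is the highest control. Why this library differs was not tested.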
